A study of Homo sapiens with 4 samples.

Results

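The autosomal miR-15/miR-16 family comprised 6 of the 7062 small RNA features that were counted: MIR15A, MIR15B, MIR16-1, MIR16-2, MIR195 and MIR497. They were found by symbol from the Ensembl identifier, or by identical RefSeq position where the identifier gave no symbol, and not by their values. Small RNA libraries were made from HEK293T cells, a human embryonic kidney line, that had been transiently transfected with 1.5 µg of plasmid per well encoding the large Pol II (RNA polymerase II) subunit RPB1 with a 52-repeat C-terminal domain (CTD). In 52X WT the repeats were wild type, and in 52X T4A the threonine at the fourth position of the repeats was replaced by alanine. Both groups then spent 72 h in 2.5 µg/ml α-amanitin, a toxin that inhibits the endogenous Pol II and that, per the labels, eliminates untransfected cells by that time. Each group had 2 libraries, described as biological replicates, without a statement that they came from separate cultures, so p-values measure the spread between these libraries. The transfected populations were not clones, and small RNA libraries hold no measure of the RPB1 transcript, so the labels of the 2 groups were not checked against the transgene.

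MiRNAs are cut from hairpins in longer Pol II transcripts by Drosha and Dicer, and 1 arm of the hairpin guides Argonaute to messenger RNAs that pair with its seed, the bases 2 to 8 of the mature miRNA. The miR-15/16 family is known for restraining cell cycle and survival genes such as CCND1, CCNE1 and BCL2, and its chromosome 13 cluster is lost in many chronic lymphocytic leukemias. The 6 hairpins lie in 3 clusters, each within a longer transcript.

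The mature 5p sequences are shown because they define the family and decide which reads can be told apart. All were taken from RefSeq (GRCh38.p14), and capitals mark the seed, which was identical in the 6 hairpins.
miR-15a-5p: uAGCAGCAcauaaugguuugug
miR-15b-5p: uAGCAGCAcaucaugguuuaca
miR-16-5p (MIR16-1 and MIR16-2): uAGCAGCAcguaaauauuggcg
miR-195-5p: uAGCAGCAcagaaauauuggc
miR-497-5p: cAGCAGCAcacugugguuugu

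MIR16-1 and MIR16-2 encode the same miR-16-5p. Counted from 1 at the 5′ end, miR-16-5p and miR-195-5p differed at 2 of 21 shared positions, G10A and U11G, whereas miR-15a-5p and miR-15b-5p differed at 4 of 22, A12C, G20A, U21C and G22A. The pair from chromosome 17 was less alike, as miR-195-5p and miR-497-5p differed at 9 of 21 positions, the first of which is U1C. Of 1736 miRNA loci in the RefSeq table, 8 gave a mature product with this seed, and the 2 outside the family were MIR424 and MIR6838.

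The 3p arms are shown because they are what separates reads of the MIR16-1 hairpin from reads of the MIR16-2 hairpin.
miR-16-1-3p: cCAGUAUUaacugugcugcuga
miR-16-2-3p: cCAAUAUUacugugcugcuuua
miR-195-3p: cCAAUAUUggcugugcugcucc
Set side by side from the 5′ end without gaps, miR-16-1-3p and miR-16-2-3p were equal at 10 of 22 positions. With miR-16-1-3p shifted by 1 base their match was longer, since the run of 11 bases that both hold starts 1 base later in miR-16-1-3p. MiR-16-2-3p had the seed of miR-195-3p, CAAUAUU, while the seed of miR-16-1-3p was CAGUAUU.

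MIR15A (ENSG00000283785.1) lay at chr13:50049119-50049201 on the minus strand, 57 bases from MIR16-1 (ENSG00000208006.1) at chr13:50048973-50049061. Both are within DLEU2, a long noncoding RNA gene on the same strand. In GENCODE v44 (lifted to GRCh37) MIR16-1 was intronic in each of the 15 DLEU2 transcripts that span it. MIR15A overlapped an exon in 8 of the 23 DLEU2 transcripts that reach it. MIR15B (ENSG00000207779.1) lay at chr3:160404588-160404685 on the plus strand and MIR16-2 (ENSG00000198987.1) 59 bases further on at chr3:160404745-160404825. Both were intronic in each of 13 spanning transcripts of SMC4, which encodes a condensin subunit. MIR195 (ENSG00000284112.1) at chr17:7017615-7017701 and MIR497 (ENSG00000284027.1) at chr17:7017911-7018022 are 209 bases apart on the minus strand, within MIR497HG, their noncoding host gene. Of the 2 MIR497HG transcripts that reach each of them, 1 overlapped each hairpin with an exon. Coordinates are GRCh38 as deposited, and all 6 were identical to the RefSeq positions.

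Library totals ran from 16180790 to 27370127 counts. Over 1480 features with enough counts for the test, 52X WT replicate 1 stood furthest from the others, since the SD of its log2 count ratio was 0.61 and 0.63 to the 52X T4A libraries and 0.54 to its own replicate, against 0.35 between the 52X T4A libraries. MiRNAs abundant in HEK293 cells (8 of 8 listed, led by MIR10A and MIR10B) were summed as CPM (counts scaled by effective library size, defined below). The sums ran from 207791 to 229549 CPM in 52X T4A and from 237486 to 263917 in 52X WT. This gap rested on the scaling factors, as by library total alone the groups overlapped and 52X T4A replicate 2 was highest. MIR10A, for example, had 3466003 of 27370127 counts in that library and 1828523 of 16195105 in 52X WT replicate 1. The summed muscle list (6 of 6 with counts, nearly all MIR1-1 and MIR1-2) was 81.6 to 96.7 CPM in 52X T4A and 30.5 to 33.1 in 52X WT. The blood list (6 of 6, nearly all MIR486-1 and MIR486-2) was 60.4 to 81.5 CPM in 52X T4A and 98.0 to 122.5 in 52X WT. MIR144 in that list was at 0 counts in 1 library of each group. MIR1-1 and MIR1-2 had nearly equal counts, as had MIR486-1 and MIR486-2, so both sums may hold shared reads more than once. MIR122, the liver marker, reached at most 0.948 CPM and the pluripotent list at most 0.885, with MIR367 at 0 counts in all 4 libraries. No gene of these lists that had enough counts for the test passed it, and genes with too few, such as MIR367, were not tested. The part of these differences in the values of the family was not tested.

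The first question was which family members these cells contained. MIR15B, MIR16-1 and MIR16-2 made up nearly all family counts, MIR195 and MIR15A were minor and MIR497 was the scarcest. Levels are given as CPM on effective library sizes, that is, totals multiplied by scaling factors from the trimmed mean of M values (TMM). Between genes, levels are given both per kilobase (kb) of hairpin and as CPM, since reads of a mature miRNA do not grow in number with the length of the hairpin. Per length, the mean of 4 libraries was 2891 CPM per kb for MIR16-2, 2515 for MIR15B, 2238 for MIR16-1, 150 for MIR195, 116 for MIR15A and 13.4 for MIR497. The ranges of MIR16-2, MIR15B and MIR16-1 overlapped, so their order is not separated by these libraries. The same was true of MIR195 and MIR15A. The gap from MIR16-1 to MIR195 was 14.9-fold and that from MIR15A to MIR497 was 8.65-fold, and at both steps the ranges over the 4 libraries were apart. In CPM, without regard to length, the order differed only at the top, with means of 246 for MIR15B, 234 for MIR16-2 and 199 for MIR16-1, and the same steps were 15.3-fold and 6.41-fold.

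**Figure D1:**
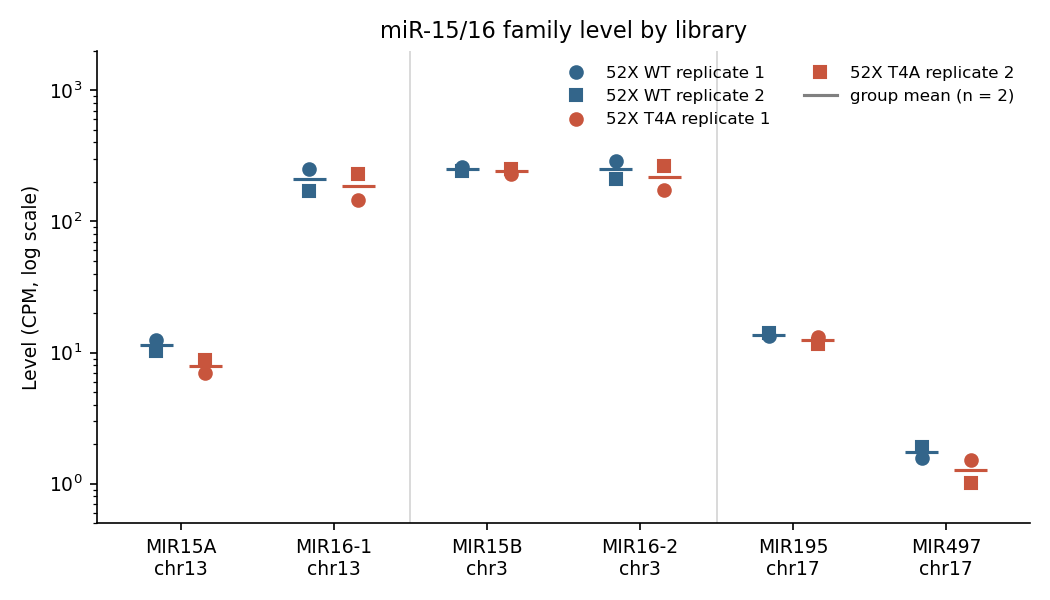
Level of each family member in CPM (log axis) in the 4 libraries, grouped by cluster. Circles are replicate 1, squares replicate 2 and lines the group mean (n = 2). MIR15B, MIR16-1 and MIR16-2 lie between 145 and 289 CPM, the other members between 1.01 and 14.0.

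The counts of MIR16-1 and MIR16-2 are not independent. In 7 pairs of other loci whose mature sequences are identical on both arms (among MIR9-1, MIR9-2 and MIR9-3, and the pairs of MIR199A, MIR512, MIR3158 and MIRLET7A hairpins), 10 of 28 pairs of counts were equal, and the difference was never more than 0.666 times the square root of the summed count. Reads of such copies were thus entered almost equally at each copy, and how this was done is not given in the sources used here. MIR16-2 exceeded MIR16-1 by 471 and 1054 counts in the 52X T4A replicates 1 and 2, and by 533 and 763 counts in those of 52X WT. This was 6.00 to 9.03 times the square root of the summed count, and 6.75% to 10.7% of the counts of both. The sum of all 6 hairpins therefore may hold most miR-16-5p reads more than once, and it is also given with the mean of MIR16-1 and MIR16-2 in place of their sum ("miR-16 once").

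With miR-16 once, MIR15B was 46.6% to 55.8% of family counts and miR-16 38.9% to 48.5%. MIR195 took 2.24% to 3.20%, MIR15A 1.67% to 2.25% and MIR497 0.195% to 0.416%. The share of miR-16 was lowest in 52X T4A replicate 1 and highest in 52X WT replicate 1, with the other replicate of each group between them, and that of MIR15B ran the other way. The share of MIR15A was 1.69% and 1.67% in 52X T4A and 2.25% in each 52X WT library.

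**Figure D2:**
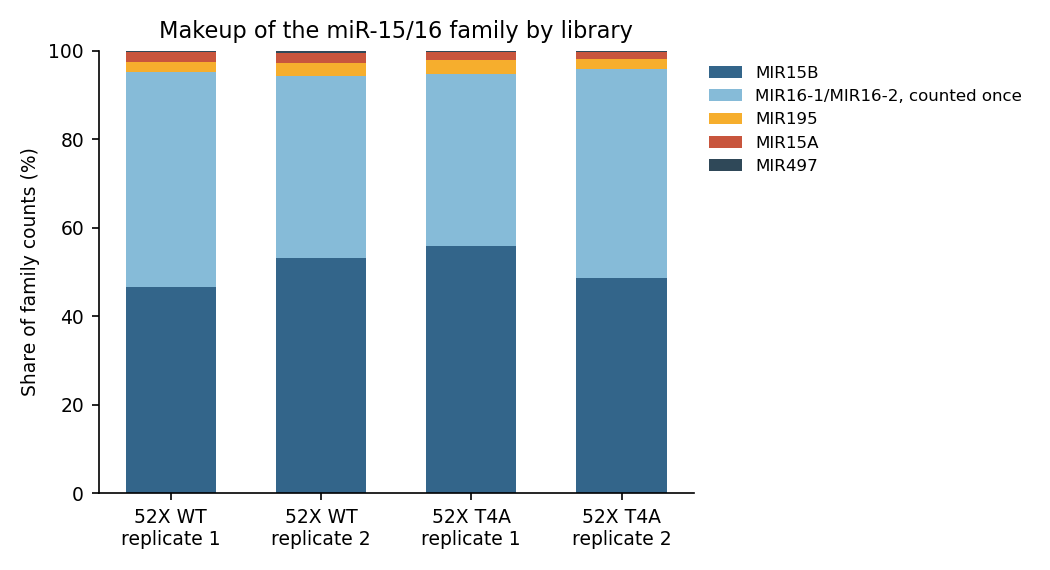
Share of each member in the family counts of a library, in percent, with MIR16-1 and MIR16-2 entered as their mean. MIR15B and miR-16 fill nearly all of each bar, and the split between them differs more between replicates than between groups.

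Next, 52X T4A was compared with 52X WT for each hairpin by edgeR (quasi-likelihood F test) over all 1480 tested features. All 6 members were tested, and 0 of 6 passed a false discovery rate (FDR) of 0.05 with a fold change above 1.5, where 0.135% of tested features (2 of 1480) did. No member was under an unadjusted p of 0.05 either (0 of 6, against 10.3% of tested features), and DESeq2 also called 0. In 3 of 6 members, MIR15A, MIR195 and MIR497, both 52X T4A libraries were below both 52X WT libraries in CPM, against 21.2% of tested features. In 0 of 6 both were above, against 18.9%. For MIR195 and MIR497 the separation rested on the TMM factors. Without them 52X T4A replicate 1 was above 52X WT replicate 1, with 208 against 194 counts for MIR195 and 24 against 23 for MIR497. Its library total was the smaller, 16180790 against 16195105. For MIR15A the groups stayed apart by library total, but barely. It had 275 of 27370127 counts in 52X T4A replicate 2 and 195 of 19159242 in 52X WT replicate 2. The log2 fold changes of the members were all below 0, with a median of -0.18, whereas the median was -0.045 over all tested features, of which 798 (53.9%) were below 0, and -0.017 over the 621 tested miRNAs. Under upper quartile factors 3 members, and under library size alone 2, were below 0, but the median of all features then moved to 0.13 and 0.14, and all 6 members stayed below it. The position below the median rested on single libraries, as 3 of 6 members were below it without 52X T4A replicate 1 and 4 of 6 without 52X WT replicate 1.

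MIR15A, the miR-15a hairpin of the chromosome 13 cluster, had counts of 110 and 275 in 52X T4A replicates 1 and 2 and of 183 and 195 in 52X WT. On the scale of level this was 6.95 and 8.71 CPM in 52X T4A and 12.5 and 10.4 CPM in 52X WT. Both 52X T4A libraries were below both 52X WT libraries on this TMM-scaled level, and only barely so by library total alone. The means were 7.83 ± 1.24 CPM (SD, n = 2) for 52X T4A and 11.4 ± 1.54 CPM (SD, n = 2) for 52X WT. The log2 fold change was -0.54 (SE 0.34, 95% interval -1.30 to 0.22, FDR 0.542 by edgeR), the lowest of the family, and it stayed between -0.70 and -0.34 under every alternative. On the linear scale the interval ran from 0.405-fold to 1.16-fold.

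MIR16-1, its partner in the cluster, had counts of 2294 and 7262 in 52X T4A and of 3684 and 3185 in 52X WT. Its level was 145 and 230 CPM in 52X T4A and 252 and 169 CPM in 52X WT. The groups overlapped, since 52X T4A replicate 2 was close to 52X WT replicate 1 and the other library of each group was lower. The means were 187 ± 60.2 CPM (SD, n = 2) and 211 ± 58.9 CPM (SD, n = 2). The log2 fold change was -0.17 (SE 0.31, 95% interval -0.87 to 0.53, FDR 0.886 by edgeR), and it was 0.11 without 52X T4A replicate 1 and 0.070 without 52X WT replicate 1.

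MIR15B, the miR-15b hairpin of the chromosome 3 cluster, had counts of 3626 and 7981 in 52X T4A and of 3795 and 4590 in 52X WT. Its level was 229 and 253 CPM in 52X T4A and 260 and 244 CPM in 52X WT. These 4 values lay close together and the groups overlapped. The log2 fold change was -0.064 (SE 0.23, 95% interval -0.59 to 0.46, FDR 0.960 by edgeR), the closest to 0 of the family and the one with the narrowest interval, from 0.665-fold to 1.38-fold. It ranged from -0.12 without 52X T4A replicate 2 to -0.011 without 52X T4A replicate 1.

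MIR16-2, its neighbour, had counts of 2765 and 8316 in 52X T4A and of 4217 and 3948 in 52X WT. Its level was 175 and 263 CPM in 52X T4A and 289 and 210 CPM in 52X WT. The order of the libraries was that of MIR16-1, with which it shares the miR-16-5p reads. The log2 fold change was -0.19 (SE 0.29, 95% interval -0.84 to 0.46, FDR 0.844 by edgeR), and it was 0.065 without 52X T4A replicate 1. The excess of MIR16-2 over MIR16-1, a measure chosen after its values were seen, was 29.8 and 33.4 CPM in 52X T4A and 36.5 and 40.5 CPM in 52X WT. The groups did not overlap in this TMM-scaled excess, and the two-sided exact permutation test gave p = 0.333, the smallest that 2 against 2 libraries allow. As a share of the counts of both hairpins, which needs no scaling, the groups overlapped. That share was 9.31% and 6.77% in 52X T4A and 6.75% and 10.7% in 52X WT.

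MIR195, which gives the 5p sequence closest to miR-16-5p, had counts of 208 and 369 in 52X T4A and of 194 and 264 in 52X WT. Its level was 13.1 and 11.7 CPM in 52X T4A and 13.3 and 14.0 CPM in 52X WT. The groups did not overlap on this TMM-scaled level, but 52X T4A replicate 1 and 52X WT replicate 1 were almost level. By library total alone the groups overlapped. The log2 fold change was -0.14 (SE 0.32, 95% interval -0.85 to 0.57, FDR 0.917 by edgeR), and it ranged from -0.28 without 52X WT replicate 1 to -0.040 without 52X T4A replicate 2.

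MIR497, the other hairpin of the chromosome 17 cluster, had only 24 and 32 counts in 52X T4A and 23 and 36 in 52X WT. Counting error alone was wide at this depth, as the exact 95% Poisson intervals ran from 15.4 to 35.7 for the 24 counts and from 25.2 to 49.8 for the 36. Its level was 1.52 and 1.01 CPM in 52X T4A and 1.58 and 1.91 CPM in 52X WT. Both 52X T4A libraries were lower on this TMM-scaled level, 1 of them by little, and by library total alone the groups overlapped. The log2 fold change was -0.50 (SE 0.42, 95% interval -1.44 to 0.44, FDR 0.650 by edgeR), the widest interval of the family. It ranged from -0.80 without 52X T4A replicate 1 to -0.19 without 52X T4A replicate 2.

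**Figure D3:**
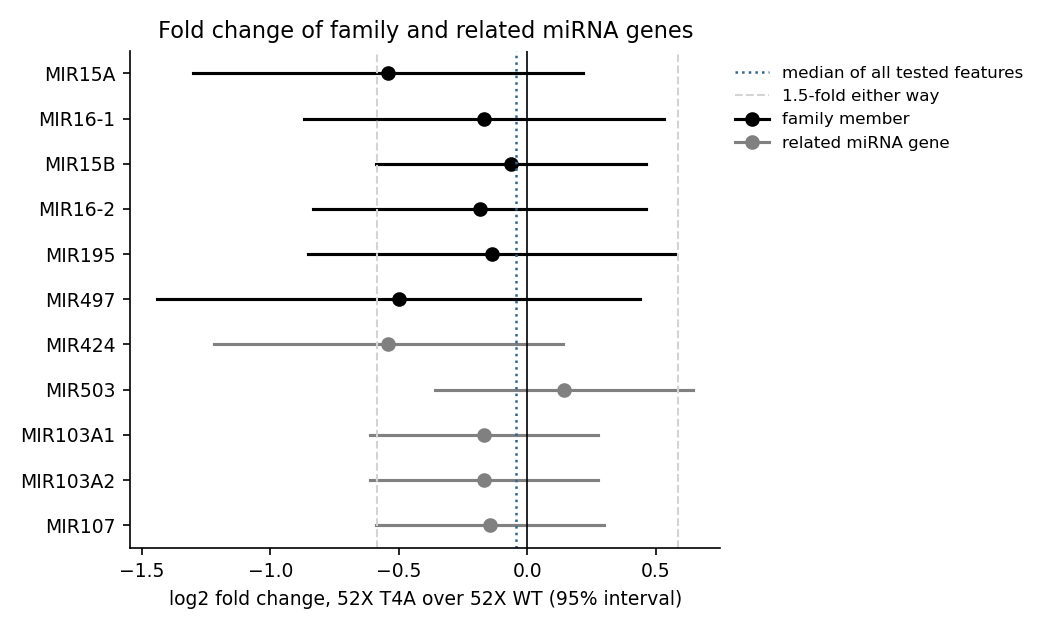
Log2 fold change of 52X T4A over 52X WT with its 95% interval from edgeR for the 6 family members (black) and the 5 tested related genes (grey). The dotted line is the median of all 1480 tested features (-0.045) and dashed lines mark 1.5-fold; every interval includes 0.

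The replicates of a group differed far more for miR-16 than for miR-15b. The log2 ratio between the replicates of 52X T4A and of 52X WT was 0.67 and 0.58 for MIR16-1, and 0.59 and 0.46 for MIR16-2. Among 173 miRNAs with a mean of at least 1000 counts, 7 were at least as far apart as MIR16-1 in 52X T4A and 15 in 52X WT, MIR16-1 itself included. For MIR15B the ratio was 0.14 and 0.093, and 113 and 146 of the 173 were at least as far apart, MIR15B itself included. MIR15B and MIR16-2 are neighbours within SMC4, but MIR15B was nearly level between replicates where MIR16-2 was not. Shared reads may be entered at both MIR16-1 and MIR16-2, so the MIR16-2 count does not stand for its own hairpin alone. The contrast with MIR15B therefore cannot be read as a difference between neighbours.

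Ratios within a library do not depend on the scaling factor, and 4 were compared. Reads of the mature product that MIR16-1 and MIR16-2 share may be entered at both hairpins. Ratios of MIR15A or MIR15B to either of them are therefore not ratios within a cluster alone. MIR16-1 held 20.9 and 26.4 times the counts of MIR15A in 52X T4A, and 20.1 and 16.3 times in 52X WT. The 2 libraries of each group were on separate sides, by a narrow gap between 20.9 and 20.1. On the log2 scale the ratio of MIR15A to MIR16-1 was lower by 0.37 in 52X T4A (difference -0.37, two-sided exact permutation p = 0.333, adjusted p = 0.667 over the 4 ratios).

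In the chromosome 3 cluster the counts of MIR15B were 1.31 and 0.960 times those of MIR16-2 in 52X T4A and 0.900 and 1.16 times in 52X WT. The groups overlapped, and the difference in log2 ratio was 0.13 (exact permutation p = 0.667, adjusted p = 0.889). In the chromosome 17 cluster MIR195 held 8.67 and 11.5 times the counts of MIR497 in 52X T4A and 8.43 and 7.33 times in 52X WT. The groups did not overlap, and the difference in log2 ratio was 0.35 (exact permutation p = 0.333, adjusted p = 0.667), with the few MIR497 counts behind it. MIR16-1 held 0.830 and 0.873 of the counts of MIR16-2 in 52X T4A and 0.874 and 0.807 in 52X WT, a difference in log2 ratio of 0.020 (exact permutation p = 1.0). With 2 against 2 libraries the test cannot go below 0.333, so no ratio could pass a threshold of 0.05.

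**Figure D4:**
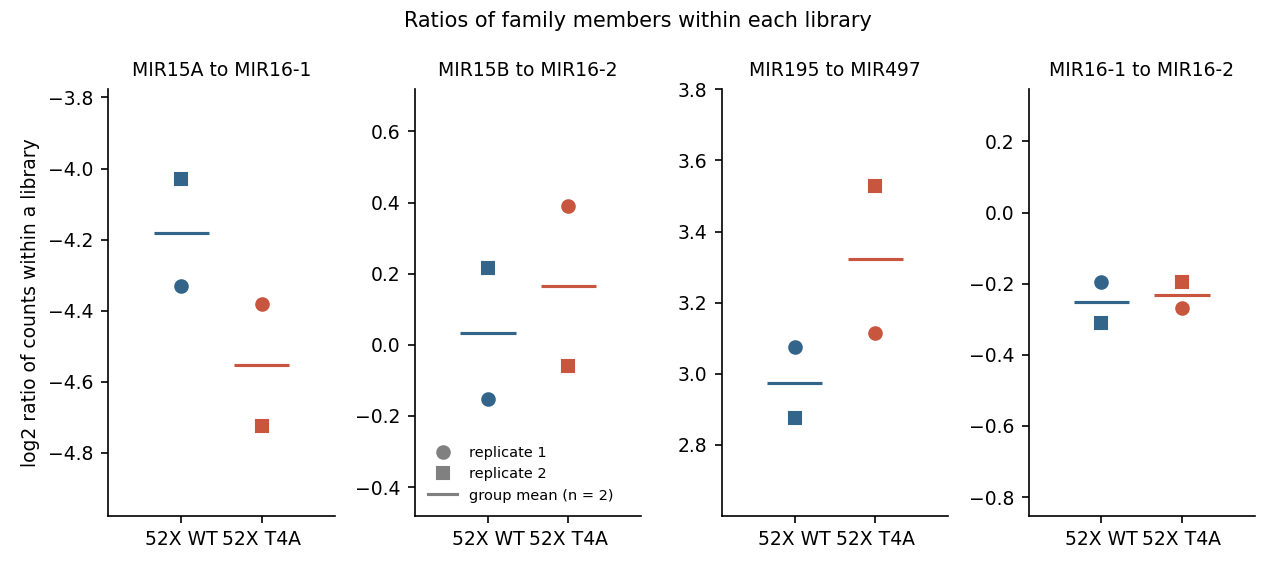
Log2 ratio of the counts of paired members within each library, in panels of the same height with their own position on the axis. Circles are replicate 1, squares replicate 2 and lines the group mean (n = 2); the groups are apart for MIR15A to MIR16-1 and for MIR195 to MIR497 and overlap in the other panels.

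Summed over the 6 hairpins, the family was at 570 and 768 CPM in 52X T4A and 829 and 649 CPM in 52X WT, which was 0.0558% to 0.0885% of all counts. The groups overlapped, and the log2 ratio of the group means was -0.14 (exact permutation p = 0.667). With miR-16 once, the sum was 411 and 521 CPM in 52X T4A and 558 and 460 CPM in 52X WT, with a log2 ratio of -0.13 (exact permutation p = 0.667). The direction was not held by single libraries, because the log2 ratio of the 6-hairpin sum was 0.055 without 52X T4A replicate 1 and 0.044 without 52X WT replicate 1.

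**Figure D5:**
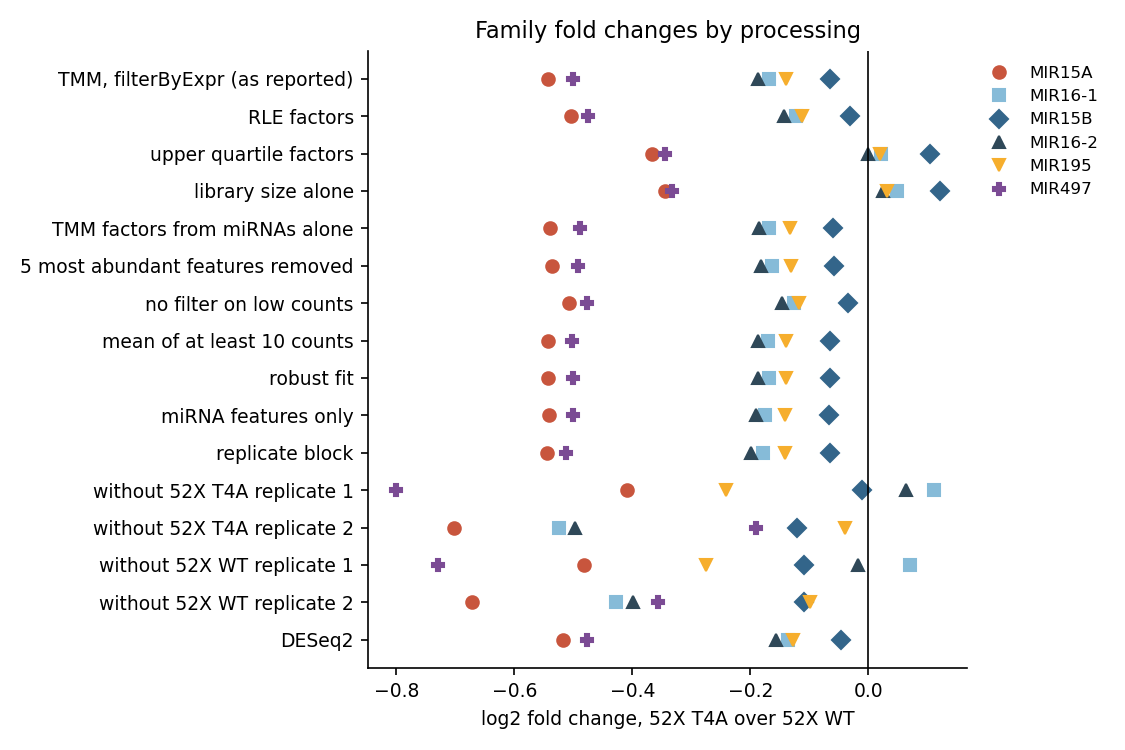
Log2 fold change of 52X T4A over 52X WT for each member under each processing alternative and without each library. MIR15A and MIR497 stay below 0 throughout, and the other members lie above it under some of them.

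The likeness of other features to the summed level was measured as the SD, over the 4 libraries, of the log2 ratio between the feature and the sum. Among 332 candidates (mean count of 1000 or more) the median SD was 0.37. The smallest were those of MIR125A (0.043), MIR423 (0.078), the C/D box snoRNA SNORD68 (0.094), MIR125B1 (0.097) and MIR339 (0.10). The level of MIR125A was 138 and 185 CPM in 52X T4A and 188 and 156 CPM in 52X WT, which is the library order of the family sum. These 4 points share library and depth, and the likeness is a description.

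Related genes, most of them with the same, a near or a shifted seed, were read from the same fit, and for 3 of their mature products the sequences are shown to set them beside the family.
miR-424-5p: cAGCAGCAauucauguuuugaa
miR-503-5p: uAGCAGCGggaacaguucugcag
miR-103a-3p: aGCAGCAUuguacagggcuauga
Of the 7 genes, 5 were tested and 0 were called, against 0.135% of all tested features. By edgeR 0 were under an unadjusted p of 0.05, against 10.3% of tested features. DESeq2 called 0, and the median log2 fold change of the 5 was -0.17. MIR646 and MIR6838 had 0 counts in all 4 libraries, which allows a level of up to 0.0950 to 0.206 CPM, for 3 counts per library and counting error only.

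MIR424, an X-linked gene with the seed of the family, was at 35.3 and 49.2 CPM in 52X T4A and 64.8 and 58.3 CPM in 52X WT. Both 52X T4A libraries were below both 52X WT libraries, as in 21.2% of tested features. The log2 fold change of MIR424 was -0.54 (SE 0.30, 95% interval -1.22 to 0.14, FDR 0.491 by edgeR), close to that of MIR15A. MIR503, also on the X chromosome, whose seed differs from that of the family in its last base, was at 365 and 399 CPM in 52X T4A and 344 and 347 CPM in 52X WT. Here both 52X T4A libraries were above both 52X WT libraries, as in 18.9% of tested features. The log2 fold change of MIR503 was 0.14 (SE 0.22, FDR 0.847 by edgeR). MiR-103a-3p, made from MIR103A1 and MIR103A2, carries AGCAGCA from its first base, so that its seed is shifted by a base. These genes and MIR107, whose product is closely related, were at 9979 to 14207 CPM in the 4 libraries, far above the family, and their log2 fold changes were -0.17, -0.17 and -0.15 (FDR 0.768, 0.768 and 0.814 by edgeR), with overlapping groups. MIR103A1 and MIR103A2 encode the same miR-103a-3p and had nearly equal counts, so they are not separate measurements. MIR107 counts lay somewhat below theirs in every library, and whether MIR107 shares reads with them was not tested.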

How the data were processed

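Small RNA was sequenced (single-end, 50 bp) in 4 libraries, 2 per group. The authors deposited raw read counts per feature for each library, without normalization. The submitters' processing notes name cutadapt 4.6, Bowtie2 2.3.5.1, featureCounts 1.5.0 and hg38. The treatment of reads that match several loci is not given in the sources used here, and the 6 hairpins cannot be resolved into arms from these tables. Totals of 16180790 to 27370127 counts set the precision, and count intervals cover counting error only. Counts were tested with edgeR 4.0.16 in R 4.3.3 (filterByExpr at a minimum count of 10, TMM factors, glmQLFit and glmQLFTest, Benjamini-Hochberg over all 1480 tested features). Calls needed an FDR under 0.05 together with more than a 1.5-fold change. Single values were tested with two-sided exact permutation tests in scipy 1.17.1. Alternatives were other scaling factors, filters and thresholds, removal of the 5 most abundant features, a robust fit, miRNAs alone, DESeq2 1.42.0, a replicate block, shared miR-16 reads merged, and each library left out. The text names all 6 members, related genes by counts and ranges and those with a mean of at least 100 counts by value, and the 5 features most like the family sum. The members and lists were chosen with earlier results of these data known.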

Additional observations from a re-analysis of the deposited data

How the results depend on the processing

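No alternative called a family member or a related gene, and the smallest FDR among members ranged from 0.244, for MIR15A without 52X WT replicate 2, to 0.925. Of 95 fold changes of members under the alternatives, 85 kept their direction. With upper quartile factors the log2 fold change was 0.104 for MIR15B, 0.021 for MIR16-1, 0.020 for MIR195 and 0.036 for the family sum. With library size alone it was 0.122 for MIR15B, 0.049 for MIR16-1, 0.026 for MIR16-2, 0.032 for MIR195 and 0.060 for the family sum. Both settings moved the median of all features above 0. Leaving out each library in turn, where a lone library was assumed to vary like the others, gave log2 fold changes of -0.524 to 0.112 for MIR16-1, -0.497 to 0.065 for MIR16-2, -0.275 to -0.040 for MIR195, -0.121 to -0.011 for MIR15B and -0.374 to 0.055 for the family sum. The family sum and the ratios then have a value and no test. The difference in log2 ratio ran from -0.092 to 0.358 for MIR15B to MIR16-2, from -0.038 to 0.077 for MIR16-1 to MIR16-2, from -0.54 to -0.20 for MIR15A to MIR16-1 and from 0.14 to 0.55 for MIR195 to MIR497. The cause was not tested.

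Calls over all features were 218 without 52X WT replicate 2, 35 without 52X WT replicate 1, 6 and 4 without 52X T4A replicates 1 and 2, 9 with library size alone, 6 with miRNA features only, 0 with factors from miRNAs alone, 28 by DESeq2 and 29 with no filter on low counts, against 2 as reported. With the replicate number as a block, 18 features and 0 family members were called, MIR15A was at -0.55 and the family sum at -0.15. Deviations of same-numbered libraries correlated at 0.104, and nothing in the labels pairs libraries by number. The biological coefficient of variation was 26.0%, and depth limited MIR497 most.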
